A study of Arabidopsis thaliana with 12 samples.

Results

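The set described here holds 63 EST clones (expressed sequence tags, cDNA fragments, each from a single transcript) whose transcript was more abundant in Arabidopsis thaliana seedlings given TFP or W7 than in seedlings given DMSO, while the mean ratio of W7 alone over W7 preceded by lanthanum stayed below a set limit. They were chosen from the authors' deposited ratios. A clone had to reach an intensity of 500 in either channel on all 3 TFP arrays, a mean log2 ratio of at least 1 over the TFP arrays and over the W7 arrays with all 6 values above 0, and a mean below 0.5 for W7 over La plus W7. Of 11926 named clones, 6948 were bright enough and 198 met the conditions on both antagonists. The lanthanum limit divided these into the 63 clones and 135 others. The values of these 9 arrays that chose the clones are therefore given as a description. Limma counts for them are listed too, but nothing is read from those counts.

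Transcript abundance was measured on 2-colour cDNA arrays, on which the RNA of treated seedlings competed with that of control seedlings. The 4 experiments had 3 arrays each, called independent biological repeats in the design text: TFP over DMSO, W7 over DMSO, W7 over W7 after a lanthanum pretreatment (La plus W7), and La plus W7 over DMSO after the same pretreatment (La plus DMSO). Seedlings were treated for 1 h, and the sources used here give no dose, seedling age or genotype. P-values measure the spread between these arrays alone. The RNA came from whole seedlings, in which fewer cells of a type and less RNA per cell cannot be told apart. The files do not pair clones with genes, so the seedling label was not checked against marker genes, and no gene or function can be given for a clone.

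Calmodulin is a small protein that binds calcium ions and then binds and switches many other proteins, among them kinases, phosphatases, ion pumps and transcription factors. TFP (trifluoperazine, a phenothiazine) and W7 (a naphthalenesulfonamide) both bind calcium-loaded calmodulin and keep it from its targets. Lanthanum ions block many plasma membrane calcium channels and so limit calcium entry from outside the cell. The lanthanum experiments put the question of how far the response to W7 depends on this calcium entry.

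Not all arrays carried the 63 clones equally. TFP array 2, W7 array 3 and array 2 of W7 over La plus W7 had the widest log2 ratios of the 12 arrays, with a quartile range over the bright clones of 0.98, 1.05 and 1.02, against 0.32 to 0.61 on the other 9 arrays. Across the 6948 bright clones, TFP array 2 correlated with W7 array 3 at a Spearman rho of 0.585 and with array 2 of W7 over La plus W7 at -0.537, which is given without a p because clones share arrays and are not independent. When the same rule was applied without these 3 arrays, 43 clones met it, of which 28 were among the 63. The decision to leave these arrays out was made after their values were seen.

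The 28 clones that met the rule with and without the 3 arrays included R65079, T43869, T45246, T46702, T76071, W43205, N65628, N37896, H36081 and R90193, which are described below. Among the 63 clones, 38 kept a TFP mean of at least 1, 52 kept a W7 mean of at least 1, and 51 kept a mean of W7 over La plus W7 below 0.5 when the 3 arrays were left out. Of all 6948 bright clones, 245, 269 and 6380 met these conditions in the same order. On all 3 wide arrays at most 4 of the 63 clones had a saturated spot. The part of the wide spread in the choice of the remaining clones was not tested.

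On the TFP arrays the 63 clones had median log2 ratios of 1.46, 2.36 and 0.84 on arrays 1, 2 and 3. The medians for the other 135 clones were 1.81, 1.57 and 1.57. The 63 clones thus differed between arrays more than the other clones did, with means of the array medians of 1.55 ± 0.77 for the 63 clones and 1.65 ± 0.14 for the other 135 (SD, n = 3 arrays each). Clone means over the TFP arrays ran from 1.04 to 2.37, with a median of 1.53.

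On the W7 arrays the 63 clones had medians of 1.34, 1.51 and 1.99, and the other 135 had medians of 1.88, 1.68 and 1.74. The means of the array medians were 1.61 ± 0.34 for the 63 clones and 1.76 ± 0.10 for the other 135 (SD, n = 3 arrays). Array 3 was the highest of the W7 arrays for the 63 clones, as array 2 was of the TFP arrays. Clone means for W7 ran from 1.06 to 2.98, with a median of 1.51.

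For W7 over La plus W7, the 63 clones had medians of 0.20, -0.64 and 0.14 on arrays 1, 2 and 3, and the other 135 had medians of 1.1, 1.14 and 1.18. The low limit on this mean was met in part through array 2: 51 of the 63 clones were below 0 there, 17 of them at -1 or lower, while 22 and 18 were below 0 on arrays 1 and 3. Of all 6948 bright clones, 3328 were below 0 on array 2, with 599 at -1 or lower, and 3313 and 3660 were below 0 on arrays 1 and 3. Without array 2 the mean would have been 0.5 or more for 12 of the 63 clones. All 3 arrays lay within 0.5 of 0 for 19 clones, all were above 0 for 8 and all were below 0 for 9, and at least 1 array was 1 or more from 0 for 22.

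**Figure D1:**
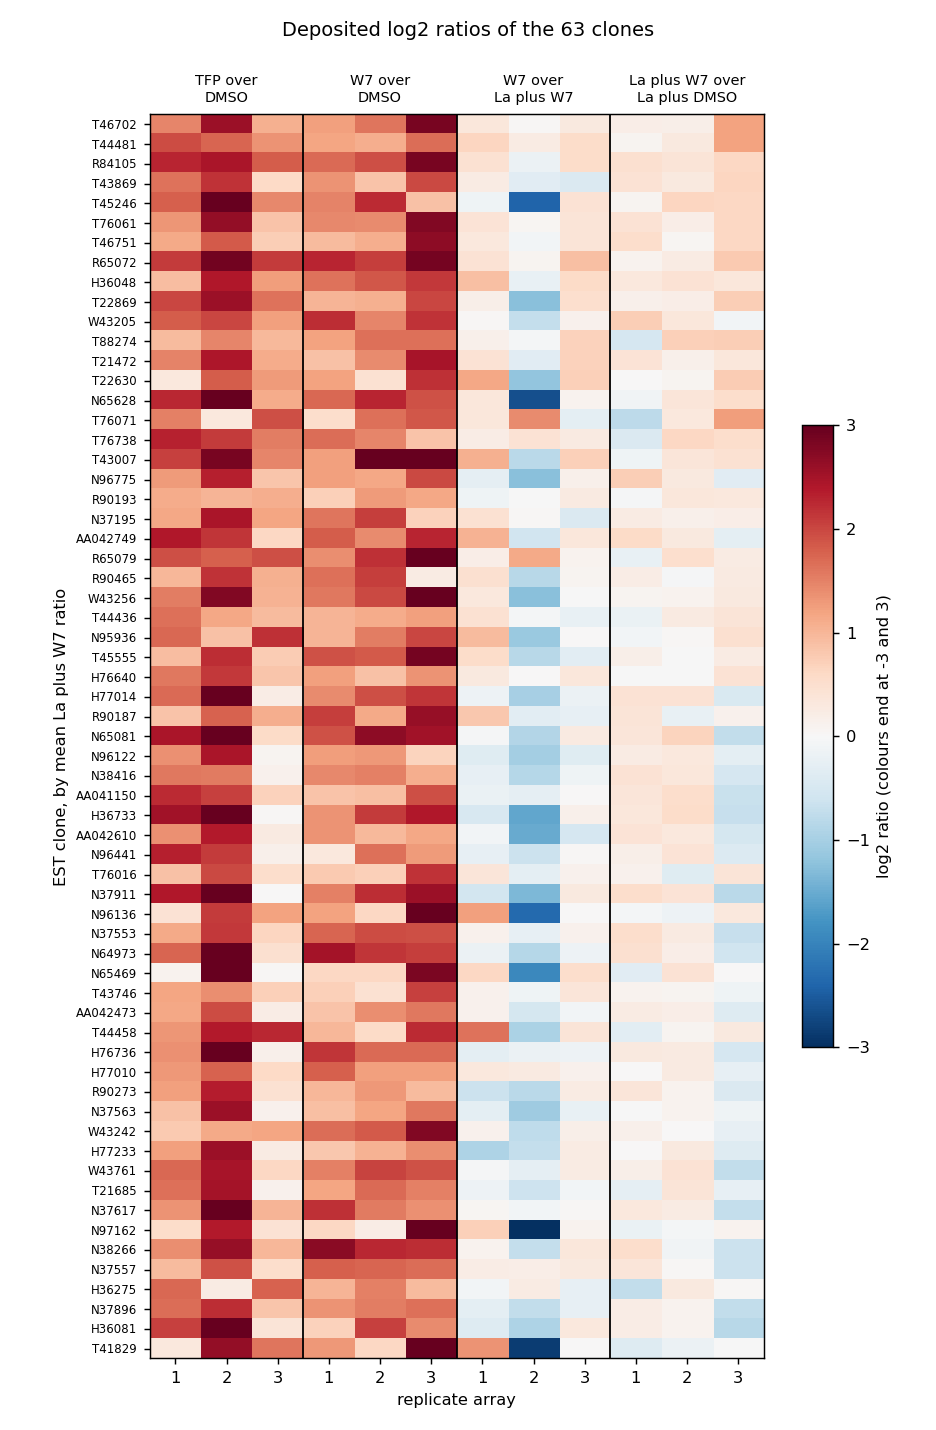
Deposited log2 ratios of the 63 clones (rows, ordered by their mean for La plus W7 over La plus DMSO) on the 12 arrays (columns, 3 replicate arrays per experiment), with red for higher and blue for lower in the first named treatment. The first 6 columns are above 0 by the rule, array 2 of W7 over La plus W7 holds the lowest values, down to -3.06, and the last 3 columns are pale, with clone means from -0.19 to 0.53.

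Some of the 63 clones were high on every antagonist array. R65072 had log2 ratios of 2.1, 2.89 and 2.11 for TFP and 2.28, 2.06 and 2.87 for W7, so that its lowest value of the 6 was the highest among the 63 clones. Its ratios for W7 over La plus W7 were 0.44, 0.08 and 0.90, and those for La plus W7 over La plus DMSO were 0.11, 0.25 and 0.77. Those last 3 values were all above 0. R65072 was among the clones that missed the limit on W7 over La plus W7 once the wide arrays were left out.

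R84105 had log2 ratios of 2.30, 2.45 and 1.82 for TFP and 1.70, 1.92 and 2.86 for W7. W7 over La plus W7 gave 0.45, -0.18 and 0.55, and La plus W7 over La plus DMSO gave 0.48, 0.38 and 0.61. All of its La plus W7 ratios were above 0.

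R65079 was steady across the TFP arrays (SD 0.09), and W43205 was less so (SD 0.41). R65079 had 1.94, 1.79 and 1.94 for TFP and 1.40, 2.20 and 3.07 for W7, with 0.20, 1.14 and 0.11 for W7 over La plus W7 and -0.22, 0.50 and 0.24 for La plus W7 over La plus DMSO. W43205 had 1.82, 2.01 and 1.22 for TFP, 2.22, 1.47 and 2.17 for W7, 0.04, -0.71 and 0.12 for W7 over La plus W7, and 0.74, 0.33 and -0.09 for La plus W7 over La plus DMSO. Neither clone had the same sign on all 3 of its La plus W7 arrays.

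T43007 and N65628 completed the 6 clones with the highest lowest value, and both moved widely between arrays. T43007 had 2.05, 2.84 and 1.47 for TFP and 1.23, 3.04 and 4.67 for W7, and the last of these was the highest value of any of the 63 clones on a W7 array. Its ratios for W7 over La plus W7 were 1.06, -0.81 and 0.70, with array 2 opposite to arrays 1 and 3. N65628 had 2.26, 3.61 and 1.12 for TFP and 1.73, 2.28 and 1.90 for W7, and its ratios for W7 over La plus W7 were 0.34, -2.64 and 0.10.

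The clones with the lowest means for W7 over La plus W7 were N97162, N65628, T45246 and AA042610. N97162 had 0.70, -3.06 and 0.10, T45246 had -0.14, -2.40 and 0.44, and AA042610 had -0.07, -1.51 and -0.49. In each of these 4 clones the low mean came from array 2, and AA042610 alone of them was below 0 on all 3 arrays. N97162 also took most of its W7 mean from 1 array, with 0.63, 0.21 and 3.29.

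The clones on either side of the thresholds were close in value. For the TFP mean, W43242, R90193 and N38416 lay just inside at 1.04, 1.07 and 1.09, and N65786, H76923 and H76954 lay just outside at 0.99, 0.97 and 0.97. For the W7 mean, R90193, N96122 and T43746 lay inside at 1.06, 1.07 and 1.08, and N96476, T76703 and H76312 lay outside at 1.00, 0.98 and 0.97. For the limit on W7 over La plus W7, T76071, R65079 and T44481 lay inside at 0.49, 0.48 and 0.48, and R90100, T21998 and T42435 lay outside at 0.51, 0.52 and 0.52.

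The limma fit, an empirical Bayes linear model over 9180 clones on 11 arrays, held 60 of the 63 clones. N37195, R90273 and R90465 were left out because they were too dim on W7 array 3. TFP over DMSO was called higher (Benjamini-Hochberg adjusted p under 0.05) for 35 of the 60 clones and for 2.27% of all clones tested. W7 over DMSO was called higher for 32 of the 60 and for 2.1% of all clones. W7 over La plus W7 was called in limma for 0 of the 60, and higher for 0.349% and lower for 0.0871% of all clones. At an unadjusted p under 0.05, 4 of the 60 were higher and 0 lower, beside 4.97% and 6.08% of all clones. Without the 3 wide arrays it was called for 1 of the 60, T43007 (log2 ratio 1.18, SE 0.23). W7 over La plus W7 was then called higher for 0.937% and lower for 0.817% of all clones. T43007 had deposited log2 ratios of 1.06 and 0.70 on arrays 1 and 3 of W7 over La plus W7. The test RNA was in Cy3 on both, so its fitted 1.18 includes a correction for dye estimated from other experiments. The rule used the TFP, W7 and W7 over La plus W7 arrays, so nothing is read from these counts or from the call of T43007.

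La plus W7 over La plus DMSO was the experiment whose arrays the rule did not use, and it asked what W7 does in seedlings already given lanthanum. In limma 0 of the 60 clones tested passed there, and 0 of all 9180 clones tested. The W7 ratios of the 60 clones without lanthanum had been chosen to be high, so no difference is read from setting the ratios after lanthanum beside them. The 63 clones had deposited median log2 ratios of 0.18, 0.26 and 0.04 on arrays 1, 2 and 3, where the other 135 clones had 0.19, 0.29 and 0.58 and all bright clones had -0.09, 0.00 and 0.01. The means of the array medians were 0.16 ± 0.11 for the 63 clones, 0.35 ± 0.20 for the other 135 and -0.03 ± 0.06 for all bright clones (SD, n = 3 arrays).

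On arrays 1, 2 and 3 of La plus W7 over La plus DMSO, 68.3%, 84.1% and 50.8% of the 63 clones were above 0. For all bright clones these shares were 39.7%, 48.4% and 51.9%. Clone means for La plus W7 over La plus DMSO ran from -0.19 to 0.53 among the 63 clones, with a median of 0.10, and were above 0 for 50 of them. Over all bright clones the median of such means was -0.02. Clone means reached 0.5 for 2 of the 63 clones, T46702 and T44481, for 34 of the other 135 and for 47 of all 6948 bright clones. They reached 1 for 0 of the 63 and for 3 of the other 135. All 3 arrays were above 0 for 13 of the 63 clones (20.6%), for 71 of the other 135 (52.6%) and for 8.26% of all bright clones. T41829 was the 1 clone of the 63 below 0 on all 3 arrays, and 49 clones had no common sign.

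**Figure D2:**
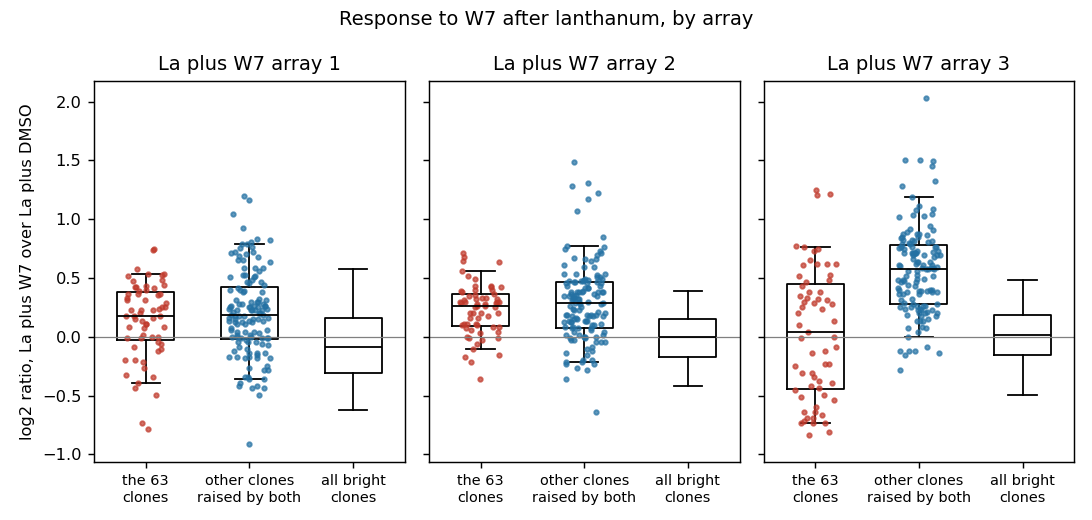
Deposited log2 ratios of La plus W7 over La plus DMSO on each of the 3 arrays, with 1 point per clone for the 63 clones (red) and the other 135 clones (blue), and boxes for these and for all 6948 bright clones (line at the median, box at the quartiles, whiskers at the 5th and 95th percentiles). The 2 lists had similar medians on arrays 1 and 2, and on array 3 the 63 clones spread from -0.84 to 1.25 around 0.04 while the other 135 had a median of 0.58.

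The limma fit called 0 of the 60 clones higher and 0 lower for La plus W7 over La plus DMSO, and 0% of all 9180 clones tested. At an unadjusted p under 0.05, 0 of the 60 clones were higher, beside 1.9% of all clones and 15 of 126 fitted clones among the other 135. The fitted log2 ratios of the 60 clones had a median of 0.03 and ran from -0.28 to 0.48. They were above 0 for 34 of the 60 (56.7%), beside 49.9% of all clones tested. The fitted median moved when single arrays were left out. It was -0.36 with 18 of 60 above 0 without La plus W7 array 1, and 0.20 with 52 of 60 above 0 without array 3. Without array 1, the remaining La plus W7 arrays both had the test RNA in Cy5. The correction for dye then came from the TFP arrays alone, which the rule used. The deposited medians of the 63 clones on arrays 2 and 3 were 0.26 and 0.04. In the fit without array 1, limma called 0 of the 60. At an unadjusted p under 0.05 it gave 10 of the 60 as lower and 0 as higher, beside 0.795% and 0.85% of all clones. No direction is read from that fit. With all arrays in the fit, the other 126 had a median of 0.33, with 118 above 0, and all clones had a median of -0.00.

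A missed threshold does not show that W7 was without effect after lanthanum. The 95% intervals of the 60 clones extended a median of 0.72 log2 units to either side, and 43 of the intervals ended below a log2 ratio of 1, as did those of 92.6% of all clones tested. For the remaining 17 clones a 2-fold rise lay inside the interval. The interval reached furthest for N97162, up to 1.30.

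The shared dye term of that fit ties its values to the TFP arrays, which the rule used. In a fit of the 3 La plus W7 arrays alone, added after the data had been seen, the 60 clones had a median log2 ratio of 0.11. Of the 60, 47 (78.3%) were above 0, beside 50.3% of all clones. Limma called 0 clones there, among the 60 and among all 9180. At an unadjusted p under 0.05, 7 of the 60 clones were higher, beside 2.29% of all clones and 53 of the 126. The 7 were R84105, T43869, T76061, T45246, T44481, H36048 and T46751, with log2 ratios of 0.37 to 0.57. The 95% interval ended below a log2 ratio of 1 for 57 of the 60 clones and for 96.8% of all clones.

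**Figure D3:**
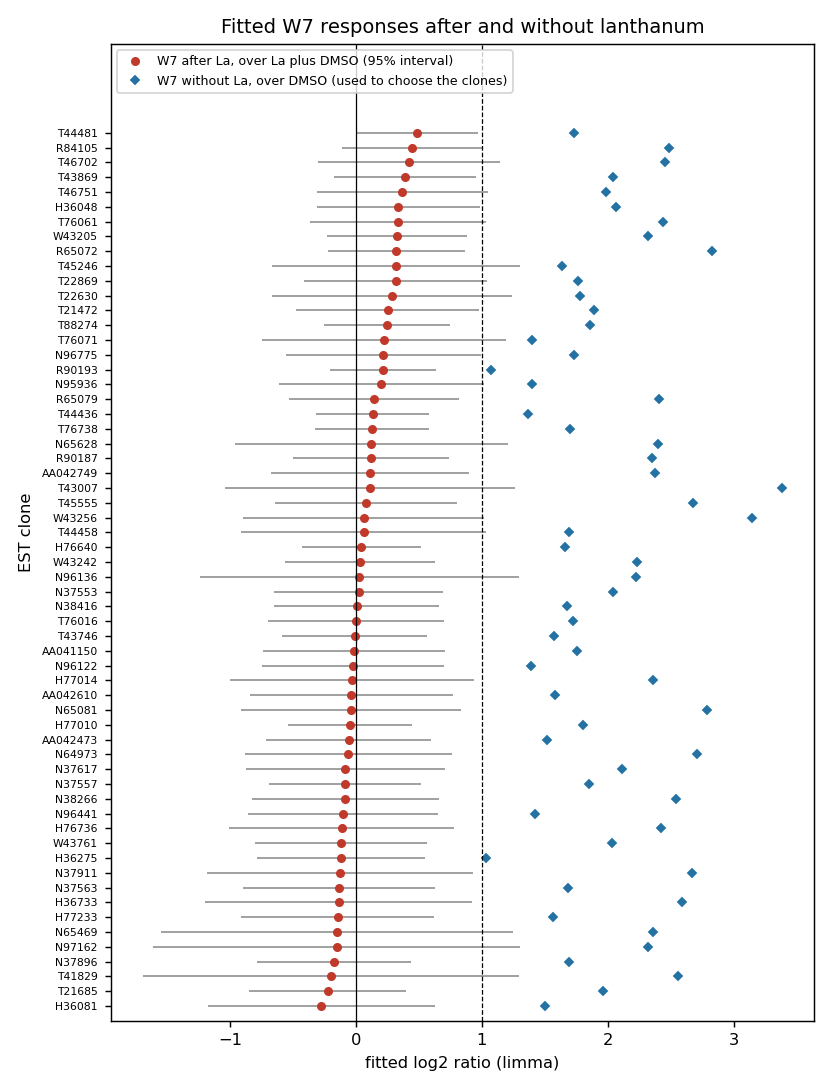
Fitted log2 ratios of the 60 clones in the limma fit, ordered by the value for W7 after lanthanum (red points with 95% intervals), with the fitted value for W7 without lanthanum (blue diamonds, no interval, from arrays that chose the clones). The red points lie between -0.28 and 0.48, to the left of diamonds that the rule chose to be high, and 43 of the intervals end left of the dashed line at 1.

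The clones with the highest fitted values for La plus W7 over La plus DMSO were T44481, R84105, T46702, T43869, T46751 and H36048. T44481 had deposited log2 ratios of 0.08, 0.29 and 1.21 here, and its fitted value was 0.48 (SE 0.22, limma adjusted p = 1). T46702 had 0.20, 0.18 and 1.21 (fitted 0.42, SE 0.33, limma adjusted p = 1). Both took most of their mean from array 3.

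T43869, T46751 and H36048 were more even. T43869 had 0.43, 0.30 and 0.65, T46751 had 0.54, 0.06 and 0.62, and H36048 had 0.31, 0.43 and 0.34. Each of these 3 clones was above 0 on every array. Their W7 values without lanthanum, which the rule required to be high, were 1.35, 0.86 and 1.97 for T43869, 0.94, 1.1 and 2.69 for T46751, and 1.63, 1.87 and 2.12 for H36048. Their adjusted p in limma was 1 in each case.

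The clones with the lowest fitted values were H36081, T21685, T41829, N37896, N97162 and N65469. H36081 had 0.23, 0.11 and -0.84 for La plus W7 over La plus DMSO, and N37896 had 0.23, 0.11 and -0.74, so that each was above 0 on 2 arrays and low on array 3. T21685 had -0.27, 0.39 and -0.25, and T41829 had -0.40, -0.17 and -0.01. The fitted value of H36081 was -0.28 (SE 0.41), that of T21685 was -0.22 (SE 0.29) and that of T41829 was -0.20 (SE 0.69), each with a limma adjusted p of 1.

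N97162 had -0.20, -0.06 and 0.10 for La plus W7 over La plus DMSO, and N65469 had -0.34, 0.42 and 0.00. N65469 also showed how unevenly a clone could meet the rule, with 0.11, 3.42 and 0.03 for TFP and 0.63, 0.62 and 2.82 for W7. Its high values came from TFP array 2 and W7 array 3, which are among the 3 wide arrays, and it was not among the 28 clones that met the rule without them.

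For the 28 clones that met the rule both ways, the deposited medians for La plus W7 over La plus DMSO were 0.21, 0.28 and 0.26 on the 3 arrays, a mean of 0.25 ± 0.03 (SD, n = 3 arrays), and 7 of the 28 were above 0 on all 3. For the 43 clones chosen without the wide arrays, the medians were 0.14, 0.29 and 0.38, a mean of 0.27 ± 0.12, and 13 were above 0 on all 3 arrays. The 149 other clones that met the response conditions without those arrays had a mean of 0.33 ± 0.17, with 77 above 0 on all 3 arrays. Without the 3 wide arrays the limma fit again called 0 of the 60 clones for La plus W7 over La plus DMSO, with a median log2 ratio of 0.08. At an unadjusted p under 0.05, 7 of the 60 clones were higher there and 0 lower, beside 4.1% and 1.8% of all clones.

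Array 3 of La plus W7 over La plus DMSO divided the 63 clones. On it 30 clones were below 0, from -0.84 to -0.01, and the other 33 reached up to 1.25. Of the 30, 26 were above 0 on array 1 and 27 on array 2, with medians of 0.32 and 0.28, and of the 33, 17 and 26 were above 0 there, with medians of 0.07 and 0.20. The 30 clones low on array 3 also had lower ratios on TFP array 3, with a median of 0.50 against 1.12 for the 33, and 15 of the 30 were below 0.5 there against 2 of the 33.

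Across the 63 clones, La plus W7 array 3 and TFP array 3 correlated at a Spearman rho of 0.643, beside 0.095 across all bright clones. La plus W7 array 3 and array 1 of W7 over La plus W7 correlated at 0.628 across the 63 clones and at 0.012 across all bright clones. Arrays 1 and 3 of La plus W7 over La plus DMSO correlated at -0.418 across the 63 clones and at -0.051 across all bright clones. These values are a description over 63 clones that share arrays and were chosen on TFP array 3 and the W7 over La plus W7 arrays. TFP array 3 and La plus W7 array 3 had opposite dye orientations and different scan sets, with the test RNA in Cy3 on the first and in Cy5 on the second.

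The initial letters of the clone names, which are assigned in lots when sequences are submitted to a public database, moved with this division. Names beginning with T made up 20 of the 63 clones, against 66 of the other 135, and names beginning with N made up 19, H 9, R 7, AA 4 and W 4. On La plus W7 array 3, 3 of the 20 T clones and 1 of the 7 R clones were below 0, against 13 of 19 N, 6 of 9 H, 4 of 4 AA and 3 of 4 W clones. The T clones had a median of 0.57 there and the 43 clones with other names had a median of -0.30. Among the other 135 clones both medians were similar, at 0.57 for T and 0.58 for other names, and among all bright clones they were 0.06 and 0.00. The part of the name groups in the result was not tested. All 63 clones were spotted once, in 27 of the 32 print blocks of the array and with at most 6 in a block.

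**Figure D4:**
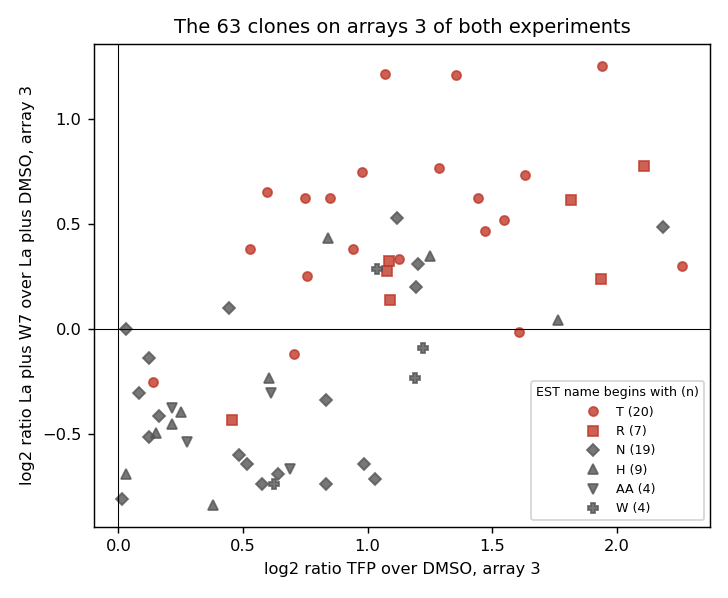
Deposited log2 ratios of the 63 clones on TFP array 3 (horizontal) and on La plus W7 array 3 (vertical), with marker shape and colour by the initial letters of the clone name and the number of clones in the key. Below 0 on La plus W7 array 3 lie 3 of the 20 T clones and 1 of the 7 R clones (both red). The N, H, AA and W clones (grey) lie mostly below the horizontal line. The shared colour of T and R was not planned, and in the text R counts among the other names.

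La plus DMSO and DMSO were not set against each other on any array. The 3 measured ratios that close the loop imply a value for it: the W7 ratio less the ratio of W7 over La plus W7 and less that of La plus W7 over La plus DMSO. For the 63 clones this implied log2 ratio of La plus DMSO over DMSO had a median of 1.57, from 0.31 to 2.65, and was at least 1 for 52 clones. For the other 135 clones the median was 0.33, with 17 at 1 or more, and for all bright clones it was -0.04. A high W7 ratio and a low ratio of W7 over La plus W7 both enter this value and both chose the clones, so its size is enlarged by that choice and is given without a test.

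The same relation was read from single channels, after the channels of all arrays had been put on 1 scale (loess within arrays and Aquantile between arrays). Levels are given as the median log2 level of the 63 clones less that of all bright clones in the same channel. This level was 1.42 ± 0.80 in 3 TFP channels, 1.35 ± 0.66 in 5 W7 channels, 1.08 ± 0.44 in 6 La plus W7 channels, 0.67 ± 0.14 in 3 La plus DMSO channels and -0.07 ± 0.14 in 5 DMSO channels (SD over channels). The TFP, W7 and La plus W7 channels overlapped, as neighbours in this order did not differ beyond their spread, and each La plus DMSO channel (0.57 to 0.82) lay above each DMSO channel (-0.20 to 0.16). The La plus W7 channels, from 0.75 up, also overlapped the La plus DMSO channels.

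The wide arrays again stood apart. The level of the 63 clones was 2.31 in the TFP channel of TFP array 2, 2.53 in the W7 channel of W7 array 3 and 1.96 in the La plus W7 channel of array 2 of W7 over La plus W7. Without these arrays it was 0.97 ± 0.31 in 2 TFP channels, 1.03 ± 0.05 in 3 W7 channels, 0.91 ± 0.12 in 5 La plus W7 channels, 0.67 ± 0.14 in 3 La plus DMSO channels and -0.10 ± 0.06 in 3 DMSO channels. The TFP, W7 and La plus W7 channels still overlapped, as did the La plus W7 and La plus DMSO channels. Each La plus DMSO channel still lay above each DMSO channel.

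Within 1 scan set (arrays whose headers name the same image folder and day) and 1 dye, Cy3, the level was 0.61 and 0.57 in the La plus DMSO channels of La plus W7 arrays 2 and 3, and -0.14 and -0.20 in the DMSO channels of TFP arrays 1 and 2. Per clone, the mean of the La plus DMSO channels less that of the DMSO channels had a median of 0.80 over the 63 clones, and was above 0 for 55 of them. For all bright clones the median of this difference was 0.01, with 50.5% above 0. Every La plus DMSO channel lay above every DMSO channel for 15 of the 63 clones, for 30 of the other 135 and for 2.86% of all bright clones. The other 135 clones had a median of 0.73, above 0 for 121, so the level was higher in La plus DMSO than in DMSO in most clones of both lists. The DMSO channels are on arrays that chose the clones, and nothing more is read from these counts.

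**Figure D5:**
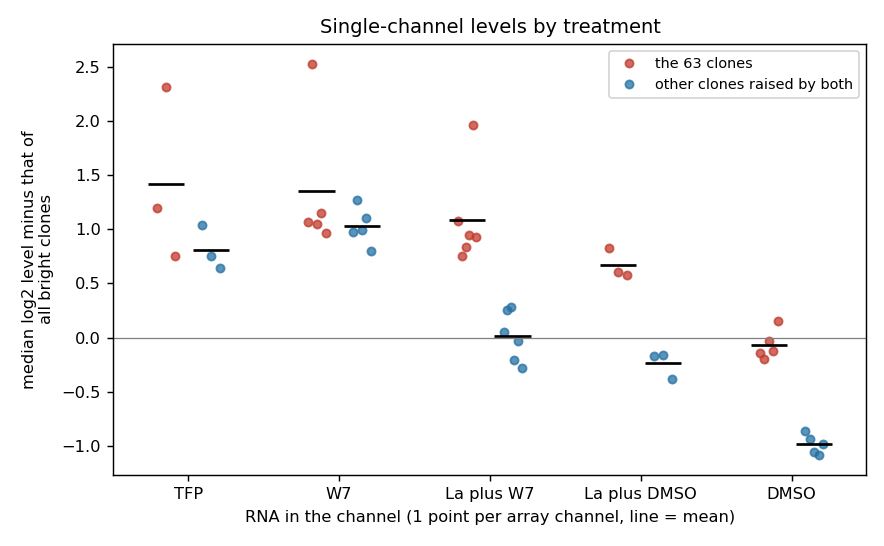
Median log2 level of the 63 clones (red) and of the other 135 clones (blue), each less the median of all bright clones in the same channel, with 1 point per array channel and a line at the mean, by the RNA in the channel. For the 63 clones the La plus W7 points start lower than the W7 points (from 0.75 against 0.96 for W7) and overlap them. They also overlap the La plus DMSO points, which lie above the DMSO points. Single points at 2.31, 2.53 and 1.96 stand above the rest of their columns.

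The other 135 clones differed from the 63 in where the La plus W7 channels lay. Each list is compared here with itself across channels, since levels of different clones are not comparable. For the other 135 clones the level was 0.81 ± 0.21 in TFP channels, 1.03 ± 0.17 in W7 channels, 0.01 ± 0.23 in La plus W7 channels, -0.24 ± 0.12 in La plus DMSO channels and -0.99 ± 0.09 in DMSO channels. Their La plus W7 channels lay between the W7 and DMSO channels, whereas for the 63 clones they overlapped the W7 channels, a difference that the limit on W7 over La plus W7 fixed in advance. In both lists the La plus W7 channels also overlapped the La plus DMSO channels. They ran from 0.75 to 1.96 against 0.57 to 0.82 for the 63 clones, and from -0.28 to 0.28 against -0.38 to -0.16 for the other 135.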

How the data were processed

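The arrays were 12K Arabidopsis EST cDNA arrays. Per the file headers, the authors' scanner files give raw spot intensity and local background per channel, without normalization. The authors also deposited a table of linear ratios, 1 value per spot and array, with their normalization not stated in the sources used here. Their direction, test over control, was taken from the labels and headers, and log2 of these deposited ratios chose the clones. The design text names a dye swap per experiment, but W7 over La plus W7 had the test RNA in Cy3 on all 3 arrays. The scanner files of W7 arrays 1 and 2 were identical and were counted once, as array 1, so 11 arrays were fitted, and W7 array 2 entered through the deposited ratios alone.

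Of 12288 spots, 11952 were named, 323 were blank, 12 were N/A and 1 had no name. Spots of a clone were averaged (26 clones had more than 1). Intensities were corrected with normexp (offset 50) and loess within arrays in limma 3.58.1 under R 4.3.3. Spots counted as detected above the blanks' 95th percentile in either channel (80.2% to 98.0% of EST spots per array) and were kept when detected on 2 or more arrays in each experiment. The fit (lmFit, eBayes) estimated 1 ratio per experiment plus a dye term common to them, with 6 residual and 6.14 prior degrees of freedom, and its scripts were tested on simulated data. Loess and deposited log2 ratios correlated at a Spearman rho of 0.991 to 0.999 across clones. The fit had been planned for 12 arrays. The number of arrays limits the precision.

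The gene table of 38312 genes matched 0 clone names, so the planned gene lists and tissue markers were not applied. The clones named are the 6 highest and 6 lowest fitted for La plus W7, the 6 with the highest lowest value over the TFP and W7 arrays, the 4 lowest for W7 over La plus W7, and the 3 on each side of each threshold. The clones of counts of 10 or fewer were named after their values were seen. The clones and lists were chosen with earlier results of these data known. Alternatives covered background, normalization, dye term, weights, variance model, filters, scan set, replicate block and each array left out.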

Additional observations from a re-analysis of the deposited data

Results flagged for a closer look

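The median level of the 63 clones stood above the other channels of the same RNA in 2 places. In the W7 channel of W7 array 3 it was 2.53 log2 units above the bright clones, against 0.96 to 1.15 in the other 4 W7 channels. In the La plus W7 channel of array 2 of W7 over La plus W7 it was 1.96, against 0.75 to 1.08 in the other 5. Both lie on arrays that chose the clones, and the rule favours high values in these very channels, so the usual chance rate of about 1 in 20 groups for such a gap does not apply. The values are a description, with no test.

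Clone T41829 was below 0 on all 3 arrays of La plus W7 over La plus DMSO (-0.40, -0.17 and -0.01, mean -0.19) and above 0 on all 3 W7 arrays (1.30, 0.61 and 3.61). The rule required the second, and the difference was not tested.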

How the results depend on the processing

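The limma count of the 60 clones for La plus W7 over La plus DMSO was 0 under every planned and added setting, with up to 10 clones at an unadjusted p under 0.05 (without La plus W7 replicate 1, all 10 lower, beside 0.795% of all clones) and 1 call among all clones with array weights. Their median log2 ratio, reported as 0.03, ran from -0.36 without La plus W7 replicate 1 to 0.20 without replicate 3, with 18 and 52 of 60 clones above 0, and was 0.02 with a replicate block. The TFP count of 35 was 53 with array weights, 17 with a replicate block and 11 to 42 with 1 array left out. The W7 count of 32 was 51 with the authors' deposited ratios, 13 with array weights, 15 with a replicate block and 3 (without W7 replicate 3) to 41 with 1 array left out. It was 6 without TFP replicate 3 and 18 without W7 replicate 1. The TFP count was 12, 11 and 21 without TFP replicates 1, 2 and 3. For W7 over La plus W7 the count was 0 in every planned setting and 1 with the 3 wide arrays left out. The rule gave 39 clones without TFP replicate 2 and 39 to 75 with any 1 array left out, and 73 (60 of them among the 63) on loess ratios. Lanthanum limits of 0.25 and 0.75 gave 50 and 90 clones, and response minimums of 0.8 and 1.2 gave 94 and 43. Of 572 values of 25 named clones under the alternatives, 551 moved by less than 1 SD, and the lowest limma adjusted p was 0.722. The values are fitted ratios for La plus W7 over La plus DMSO, and the SD is over the 3 La plus W7 arrays. Leaving out a W7 or W7 over La plus W7 array, the variance model and the filters could not change these ratios. The count of 551 was therefore fixed in part in advance, and no stability is read from it. In the fit without La plus W7 replicate 1 the dye term was estimated from the TFP arrays alone, which the rule used. Its values for La plus W7 over La plus DMSO therefore carry the TFP ratios. The causes of the other shifts were not tested. Replicate numbers did not pair the arrays: 3 of 15 same-numbered pairs had a correlation of deviations over 0.1 (range -0.568 to 0.481).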
